A study of Danio rerio with 6 samples.

Results

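The genes of cholesterol synthesis and of its control by the transcription factor SREBP2 were examined in sorted zebrafish hepatocytes. They were chosen by symbol from a list of 31 names, of which 28 were found among the 23745 genes of the deposited table. The name mvd is a synonym of mvda in RefSeq and was counted once, and mvdb and sqle matched no symbol. The genes found comprised 10 of the mevalonate step, 3 of the squalene step, 10 of the post-squalene step and 5 of SREBP2 control and sterol transport. Hepatocytes had been sorted by fluorescence from larvae at 6 days post fertilisation, 2000 cells per sample. The 3 control samples (CTL) carried Tg(fabp10a:eGFP), a green reporter under the promoter of the liver fatty acid binding protein gene fabp10a. The 3 lcat OE samples carried Tg(fabp10a:lcat-T2A-mCherry; fabp10a:eGFP), which adds lcat joined to the red fluorescent protein mCherry under the same promoter. The lcat product, lecithin-cholesterol acyltransferase, is a secreted enzyme that esterifies cholesterol on lipoproteins. Both groups carry the green reporter, and neither carries the red reporter without lcat, so effects of lcat, of the red reporter and of the line cannot be told apart. The labels do not say whether samples of a group came from separate clutches or sorts, so the p-values cover only differences among these libraries, and those may be technical.

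Cells make cholesterol from acetyl-CoA. The mevalonate step builds activated isoprene units, with HMG-CoA reductase as the main point of control. The squalene step joins and oxidises them, and the post-squalene enzymes close the sterol rings and trim them to cholesterol. In mammals, SREBP2 (srebf2) sits in the endoplasmic reticulum bound to its escort SCAP. When sterols are low the pair moves to the Golgi, where proteases free the active factor, and the genes of this pathway are then transcribed together. INSIG proteins hold the pair back when sterols are high. The liver is a main site of cholesterol synthesis, uptake and secretion.

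The libraries held 23336591 to 24890856 counts. TMM scaling factors lay between 0.998 and 1.06 in 5 libraries, and lcat OE 3 stood apart with 0.869. Levels are counts-per-million values (CPM). The overexpressed gene lcat was at 149, 119.7 and 144 CPM in libraries 1 to 3 of CTL and at 3251, 2607 and 1956 CPM in those of lcat OE. All 15 hepatocyte markers were detected, with 25.3% to 26.6% of counts in CTL and 29.9% to 30.5% in lcat OE, and 2 were higher and 1 lower. The promoter's own gene fabp10a had a log2 fold change of 0.13 (adjusted p = 0.427), or -0.03 on transcripts-per-million values (TPM). Of 15 epidermal markers 12 were higher and 1 lower, none was at 0, and their summed share was 0.0755% to 0.136% of counts in CTL and 0.877% to 1.53% in lcat OE. Exocrine pancreas markers went the other way, from 0.0706% to 0.175% in CTL and from 0.00452% to 0.0237% in lcat OE, with 5 of 13 lower. Lower too were 6 of 7 xanthophore markers (0.0312% to 0.0569% of counts in CTL and 0.0154% to 0.0177% in lcat OE), 7 of 9 neural markers (0.00444% to 0.00704% and 0.00062% to 0.000812%) and 6 of 11 tested muscle markers (0.0040% to 0.0161% and 0.00101% to 0.00118%). Of 6 tested macrophage markers 4 were higher and 1 lower (0.002% to 0.00317% and 0.00364% to 0.00412%). Among 6 biliary markers 2 were higher and 2 lower (0.219% to 0.248% of counts in CTL and 0.112% to 0.142% in lcat OE). Among 4 tested intestinal markers 2 were higher and 0 lower (0.170% to 0.197% and 0.161% to 0.176% for the whole list). The xanthophore gene aox5 was at 0 in all 3 lcat OE libraries and the macrophage gene c1qb in all 3 CTL libraries. Of the 7 xanthophore markers, 6 had a mean under 1 CPM in lcat OE and 0 in CTL, and their median log2 fold change was -5.46. The part of these other cell types in the results below was not tested. In such bulk samples, fewer cells of a type and less RNA per cell cannot be told apart.

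Most enzymes of cholesterol synthesis had higher mean levels in lcat OE, but the 3 lcat OE libraries differed widely among themselves and 1 enzyme passed the test in that direction. Of the 27 members with enough counts to be tested, 1 was higher (nsdhl) and 3 were lower (ggps1, insig1 and npc1l1), at an adjusted p below 0.05 by edgeR's quasi-likelihood test with Benjamini-Hochberg adjustment over 14096 genes. Over all genes tested, 16.3% were called higher and 16.3% lower, together 32.6%. The median log2 fold change was 0.66 over the 27 members and 0.87 over the 22 enzymes tested, against -0.02 over all genes tested, and 20 of the 22 enzymes had a value above 0. In 3 members (lss, nsdhl and stard4) every lcat OE library lay above every CTL library, as in 23.6% of all genes tested, and in 3 (hmgcrb, insig1 and npc1l1) below, as in 24.1%. Groups thus stood apart in 6 of 27 members and in 47.7% of all genes tested. These counts differed between CPM and TPM. On TPM, lss and stard4 overlapped and ggps1 did not, leaving 1 member above and 4 below CTL (1972 and 4665 of all genes tested). Leaving out lcat OE 3 raised the members called higher to 6 (2344 of all genes tested) and the median to 0.92. Leaving out lcat OE 1 gave 2 called higher (1933 of all genes) and lowered the median to 0.31. Without CTL 1, 2 were called higher (1920 of all genes) at a median of 0.99. Without CTL 2 or lcat OE 2, 1 member was called lower (1709 and 1744 of all genes). Without CTL 1, CTL 3 or lcat OE 1, 2 were called lower (1919, 1869 and 1903 of all genes). Of all genes called, 49.9% were higher, against 38.8% with library totals, 30.8% by limma on TPM and 40.1% on FPKM.

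**Figure D1:**
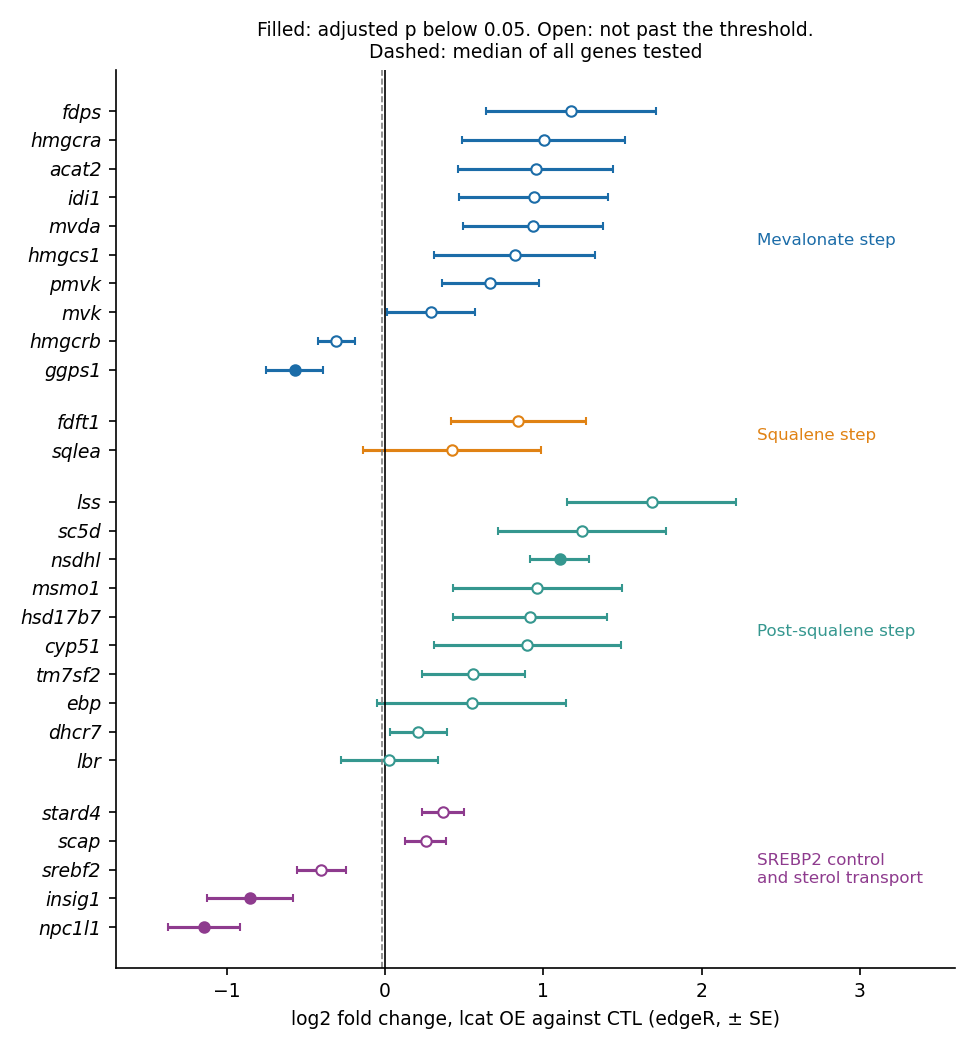
Log2 fold change of lcat OE against CTL for the 27 tested members, with the standard error from edgeR, grouped by step; filled points passed the threshold and the dashed line is the median of all genes tested (-0.02). Of the 22 enzymes 20 lie to the right of 0, with nsdhl filled. The enzyme gene ggps1 lies to the left and is filled, as are insig1 and npc1l1.

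The mevalonate step runs from acetyl-CoA to the isoprene donors. The most abundant gene of this step was hmgcra, 1 of the 2 HMG-CoA reductase genes in the table, with mean TPM values of 48.6 in CTL and 87.3 in lcat OE. It had 277, 177 and 109 CPM in CTL and 594, 309 and 225 CPM in lcat OE, libraries being named in the order 1, 2, 3 throughout. The groups overlapped, since lcat OE 3 lay below CTL 1, and the change of 1.002 on the log2 scale (SE 0.51) missed the threshold (adjusted p = 0.209). The synthase gene hmgcs1, which makes HMG-CoA, had 210.5, 143 and 108 CPM in CTL and 432, 253 and 129.8 CPM in lcat OE (log2 fold change 0.82, SE 0.51, adjusted p = 0.288). Here too lcat OE 1 and lcat OE 2 lay above all CTL libraries and lcat OE 3 lay below CTL 1 and CTL 2.

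The thiolase gene acat2, which feeds the step with acetoacetyl-CoA, had 54.0, 36.1 and 27.9 CPM in CTL and 118, 73.0 and 37.3 CPM in lcat OE (0.95, SE 0.49, adjusted p = 0.21). Here and in later brackets, a value before an SE is the log2 fold change of lcat OE against CTL. The farnesyl diphosphate synthase gene fdps had 32.0, 26.5 and 22.6 CPM in CTL and 106, 50.5 and 26.7 CPM in lcat OE. At 1.18 (SE 0.54, adjusted p = 0.165) its log2 fold change was the highest of the step, and its lcat OE libraries spanned a 3.97-fold range, the widest of all members tested. The isomerase gene idi1 (0.94, SE 0.47), the decarboxylase gene mvda (0.94, SE 0.44), the phosphomevalonate kinase gene pmvk (0.66, SE 0.31) and the mevalonate kinase gene mvk (0.29, SE 0.28) had adjusted p-values of 0.197, 0.17, 0.125 and 0.464. In mvk the CTL libraries were alike (8.71, 8.87 and 8.79 CPM), while the lcat OE libraries had 16.1, 9.13 and 6.96 CPM.

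The second reductase gene and the gene of the branch to geranylgeranyl diphosphate had lower means in lcat OE. The paralog hmgcrb had 22.8, 19.3 and 20.5 CPM in CTL and 17.3, 15.6 and 17.8 CPM in lcat OE. Its lcat OE libraries were all below CTL and close to each other, and its value of -0.31 (SE 0.12) missed the threshold (adjusted p = 0.0698). It passed in 4 of 19 alternatives, among them library totals (0.0377) and limma on log2(TPM + 1) (0.028), with adjusted p from 0.0276 to 0.222. Of the pair, hmgcra made up 83.4% to 91.9% of the summed TPM in CTL and 92.1% to 96.9% in lcat OE; reads shared by the paralogs could be split between them in the authors' counting. The gene ggps1, whose enzyme makes geranylgeranyl diphosphate for protein prenylation rather than for sterols, had 8.46, 12.7 and 13.3 CPM in CTL and 7.48, 7.05 and 8.64 CPM in lcat OE. It fell by 0.57 on the log2 scale (SE 0.18, adjusted p = 0.0342), although lcat OE 3 lay above CTL 1. That call was lost without CTL 2 (adjusted p = 0.119), CTL 3 (0.13), lcat OE 1 (0.0839) or lcat OE 2 (0.109) and on log2(FPKM + 1) (0.0794), with adjusted p from 0.00385 to 0.13 over 19 alternatives.

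**Figure D2:**
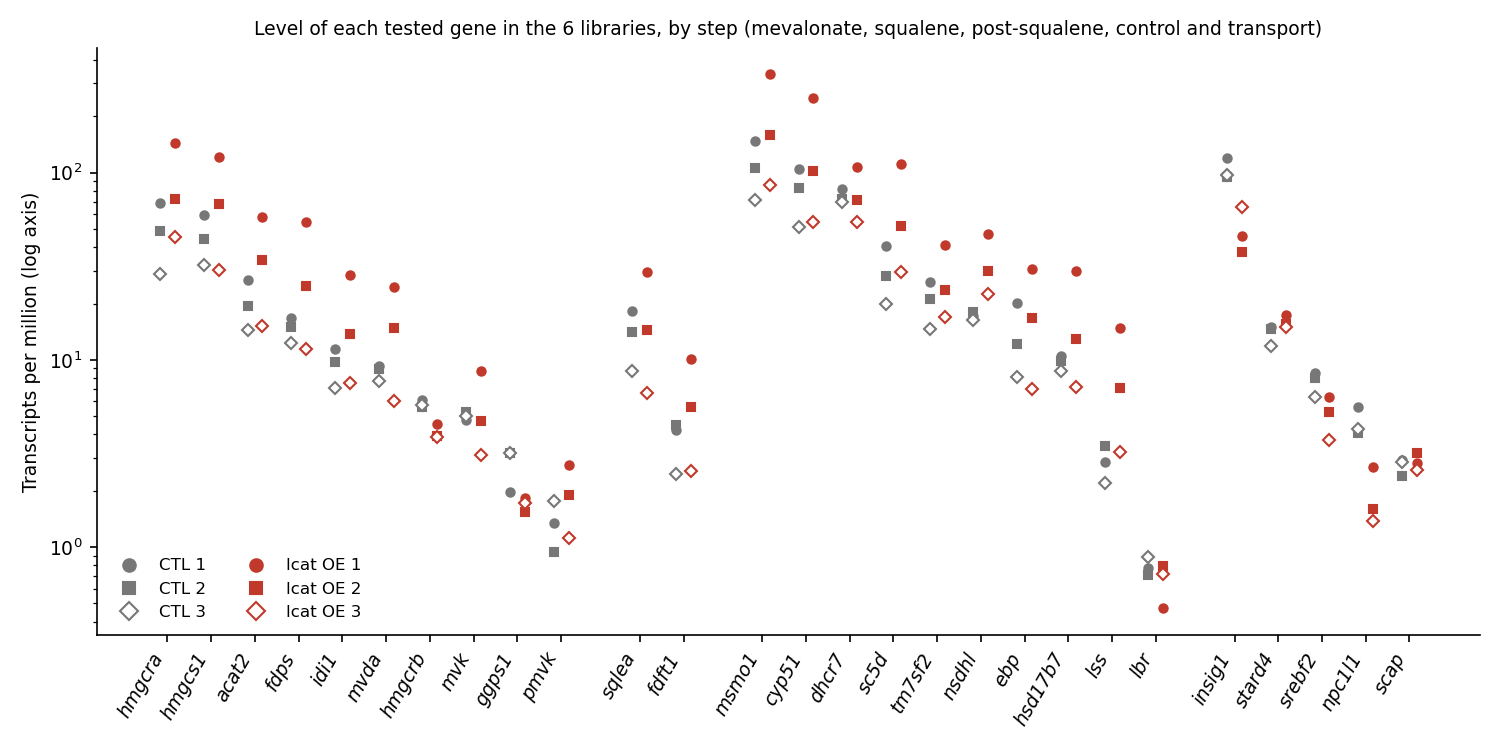
TPM (log axis) of each tested member in the 6 libraries, ordered by step and, within a step, by the mean level in CTL; grey marks are CTL and red marks lcat OE, with circles, squares and open diamonds for libraries 1, 2 and 3. For most enzymes the circles are highest and the diamonds lowest in both colours, while insig1, npc1l1 and ggps1 have their red marks low.

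In the squalene step, fdft1 encodes squalene synthase, the first enzyme committed to sterols. It had 6.13, 5.81 and 3.45 CPM in CTL and 14.3, 8.53 and 4.72 CPM in lcat OE (log2 fold change 0.84, SE 0.43, adjusted p = 0.182). Squalene epoxidase, which adds oxygen to squalene, is encoded by sqlea and sqleb. The values of sqlea were 40.5, 28.8 and 18.4 CPM in CTL and 65.9, 33.6 and 18.02 CPM in lcat OE. These groups overlapped over nearly the whole CTL range, with lcat OE 3 below every CTL library, and the log2 fold change was 0.42 (SE 0.56, adjusted p = 0.62). No read of sqleb was counted in 5 libraries and lcat OE 3 had 0.0467 CPM, so sqleb was not tested.

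The post-squalene step held the enzyme gene that rose, nsdhl. Its product is the sterol dehydrogenase that removes methyl groups together with the enzymes encoded by msmo1 and hsd17b7. In CTL, nsdhl had 24.4, 23.6 and 21.9 CPM, and in lcat OE 66.7, 44.7 and 38.7 CPM. All lcat OE libraries lay above all CTL libraries, which were close together, and nsdhl rose from 23.31 ± 1.26 to 50.1 ± 14.7 CPM (SD, n = 3 each), a 2.15-fold difference (SE 0.19 on the log2 scale, adjusted p = 0.00194). It passed with 19 of 19 alternatives (adjusted p up to 0.0237). The epidermal markers rose in the same libraries, with the highest share in lcat OE 2 (1.53%), whereas nsdhl was highest in lcat OE 1; their part in the nsdhl value was not tested.

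Its partners at C4 of the sterol did not pass. The methyl oxidase gene msmo1, the most abundant member in both groups (108 TPM in CTL and 193 TPM in lcat OE, means), had 234, 155 and 108 CPM in CTL and 536, 266 and 166 CPM in lcat OE. The log2 fold change was 0.96 (SE 0.53, adjusted p = 0.241), and lcat OE 3 lay inside the CTL range. The reductase gene hsd17b7 had 18.9, 16.4 and 14.9 CPM in CTL and 54.3, 24.6 and 15.6 CPM in lcat OE (0.92, SE 0.49, adjusted p = 0.222).

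The enzymes around ring closure and demethylation were spread widely. The lanosterol synthase gene lss had the highest log2 fold change of the members, 1.69 (SE 0.53), from 7.61, 8.55 and 5.63 CPM in CTL and 39.7, 19.9 and 10.5 CPM in lcat OE. The groups did not overlap in CPM but did in TPM (3.21 in lcat OE 3 and 3.47 in CTL 2), and the adjusted p of 0.0682 missed the threshold; it was 0.00899 without lcat OE 3, 0.0347 without lcat OE 1 and 0.0108 by DESeq2, and lay between 0.00899 and 0.168 over 19 alternatives. The demethylase gene cyp51 had 272, 198 and 128 CPM in CTL and 658, 281 and 174 CPM in lcat OE (0.90, SE 0.59, adjusted p = 0.314). Its lcat OE 3 value was below those of CTL 1 and CTL 2. The desaturase gene sc5d had 48.3, 31.0 and 22.5 CPM in CTL and 134, 64.8 and 42.6 CPM in lcat OE (1.24, SE 0.53, adjusted p = 0.144), and the isomerase gene ebp had 27.3, 15.3 and 10.4 CPM in CTL and 41.9, 23.9 and 11.5 CPM in lcat OE (0.55, SE 0.60, adjusted p = 0.543).

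The last reductase of the pathway and the C14 reductases did not pass the test. The gene dhcr7, whose enzyme completes cholesterol, had 166, 135 and 135 CPM in CTL and 218, 152 and 135 CPM in lcat OE (0.21, SE 0.18, adjusted p = 0.398). The C14 reductase reaction is shared by tm7sf2 and lbr, the latter also a protein of the inner nuclear membrane. Nearly all of the pair's summed TPM came from tm7sf2 (94.3% to 98.9% over the 6 libraries). The log2 fold change was 0.56 (SE 0.32, adjusted p = 0.244) for tm7sf2 and 0.03 (SE 0.31, adjusted p = 0.955) for lbr, whose sign turned with library totals, TPM, FPKM and some left-out libraries.

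Among the 5 control and transport genes, 2 fell and 3 did not pass. The gene insig1 encodes the sterol-dependent brake on SREBP processing and is itself a SREBP target in mammals. It had 209, 153 and 163 CPM in CTL and 81.1, 69.4 and 139.6 CPM in lcat OE. The groups did not overlap, and lcat OE 3, the lcat OE library with the lowest summed enzyme level, was the one nearest to CTL. Over both groups that sum was lowest in CTL 3 (841 CPM, against 1148 CPM in lcat OE 3). On the log2 scale it fell by 0.85 (SE 0.27, adjusted p = 0.0484). The call was lost without CTL 1 (0.12), CTL 2 (0.0605), CTL 3 (0.082), lcat OE 1 (0.155) or lcat OE 2 (0.0912) and with no filter on low counts (0.153), with adjusted p from 0.000198 to 0.155 over 19 alternatives.

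The SREBP2 gene itself, srebf2, had 41.0, 35.6 and 29.3 CPM in CTL and 30.9, 26.9 and 22.2 CPM in lcat OE (-0.40, SE 0.16, adjusted p = 0.0737); the adjusted p was 0.0434 without CTL 3 and 0.0415 without lcat OE 1. The escort gene scap had 22.3 to 29.4 CPM in CTL and 28.7 to 34.2 CPM in lcat OE (0.26, SE 0.13, adjusted p = 0.164). The srebf2 and scap groups each overlapped.

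Among the transport genes, npc1l1 encodes a membrane protein that takes up free cholesterol, in mammals at the gut surface and, in humans, at the bile canaliculus. It had 29.0, 19.4 and 21.1 CPM in CTL and 14.0, 8.69 and 8.68 CPM in lcat OE. The groups did not overlap, and npc1l1 fell by 1.14 on the log2 scale (SE 0.22, adjusted p = 0.00516), a call kept in 19 of 19 alternatives. The gene stard4, for a cytosolic sterol carrier and a SREBP target in mammals, had 18.02, 16.0 and 13.5 CPM in CTL and 20.5, 19.3 and 21.3 CPM in lcat OE. Its lcat OE libraries lay just above CTL in CPM, not in TPM, and within 1.103-fold of each other (0.37, SE 0.13, adjusted p = 0.0522), and 5 of 19 alternatives put it past the threshold, among them without CTL 1 (0.0311).

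Summed by step, enzyme levels had the same shape. The mevalonate genes added up to 207, 161 and 118 TPM in CTL and 449, 239.7 and 125 TPM in lcat OE. The post-squalene genes added up to 451, 354 and 264 TPM in CTL and 968, 476 and 282 TPM in lcat OE, and the squalene genes to 22.5, 18.6 and 11.2 TPM in CTL and 39.6, 20.03 and 9.24 TPM in lcat OE. In each of these 3 steps the groups overlapped, and on TPM lcat OE 3 lay inside or below the CTL range. On CPM the squalene sum of lcat OE 3 (22.8) lay inside that range (21.9 to 46.7 in CTL). The 5 control and transport genes added up to 151, 124 and 123 TPM in CTL and 75.3, 63.2 and 88.2 TPM in lcat OE, without overlap. Most of that sum was insig1, which held 78.3% of it in CTL and 65.9% in lcat OE.

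**Figure D3:**
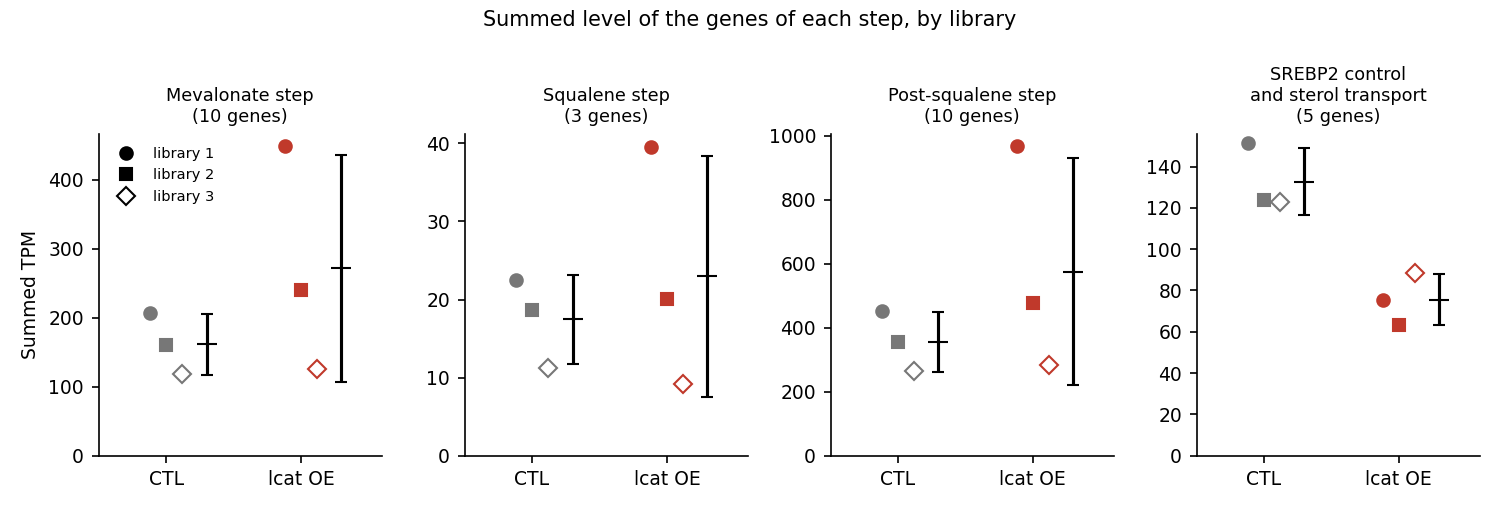
Summed TPM of the genes of each step in every library (circle, square and open diamond for libraries 1, 2 and 3), with the group mean and SD (n = 3) beside them. In the mevalonate and post-squalene panels the lcat OE libraries reach from the CTL range to above it. In the squalene panel they reach from below the CTL range to above it, and in the control and transport panel all are below CTL.

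The spread within the groups was itself shared by the enzymes. Among the 22 enzymes tested, 19 had their highest lcat OE value in lcat OE 1 and their lowest in lcat OE 3, where 18.5% of all genes tested had that order. In CTL, 15 of the 22 were highest in CTL 1 and lowest in CTL 3, where 19.4% of all genes tested were. The exceptions in lcat OE were hmgcrb, ggps1 and lbr. The median ratio of the highest to the lowest CPM was 3.12 among the 3 lcat OE libraries and 1.73 among the 3 CTL libraries for these enzymes, and 1.38 and 1.33 for all genes tested. In 13 of the 22 enzymes the lcat OE libraries differed 3-fold or more, as in 6.53% of all genes tested.

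Taken library by library, lcat OE 1 lay above all CTL libraries for 19 of the 22 enzymes, lcat OE 2 for 15 and lcat OE 3 for 3 (lss, nsdhl and lbr). The shares over all genes tested were 35.9%, 37.5% and 36.4%, so for lcat OE 3 the enzymes (13.6%) lay below that share. The median ratio of the enzymes to the CTL mean was 2.83 in lcat OE 1, 1.57 in lcat OE 2 and 0.941 in lcat OE 3. Over all genes tested it was 0.971, 0.980 and 0.986. On TPM, where lcat OE 3 is not scaled up by its TMM factor, the enzyme ratios were 2.71, 1.43 and 0.743. Those of all genes tested were 0.92, 0.889 and 0.775, so in lcat OE 3 the enzymes lay close to all genes. The lcat transcript was also highest in lcat OE 1 and lowest in lcat OE 3, with a ratio between these libraries below that of most of the enzymes; whether the enzymes follow the lcat level was not tested. Hepatocyte markers had nearly the same summed share of counts in lcat OE 1 (30.2%), 2 (30.5%) and 3 (29.9%). Taken singly on CPM, 12 of the 15 hepatocyte markers were highest in lcat OE 3 and 11 were lowest in lcat OE 1. The epidermal share was highest in lcat OE 2 (1.23%, 1.53% and 0.877%).

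The spread of the control and transport genes was below the median of the enzymes. The lcat OE libraries differed 1.103-fold for stard4, 1.19-fold for scap, 1.39-fold for srebf2 and 1.61-fold for npc1l1. For insig1 they differed 2.01-fold, with the highest value in lcat OE 3.

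**Figure D4:**
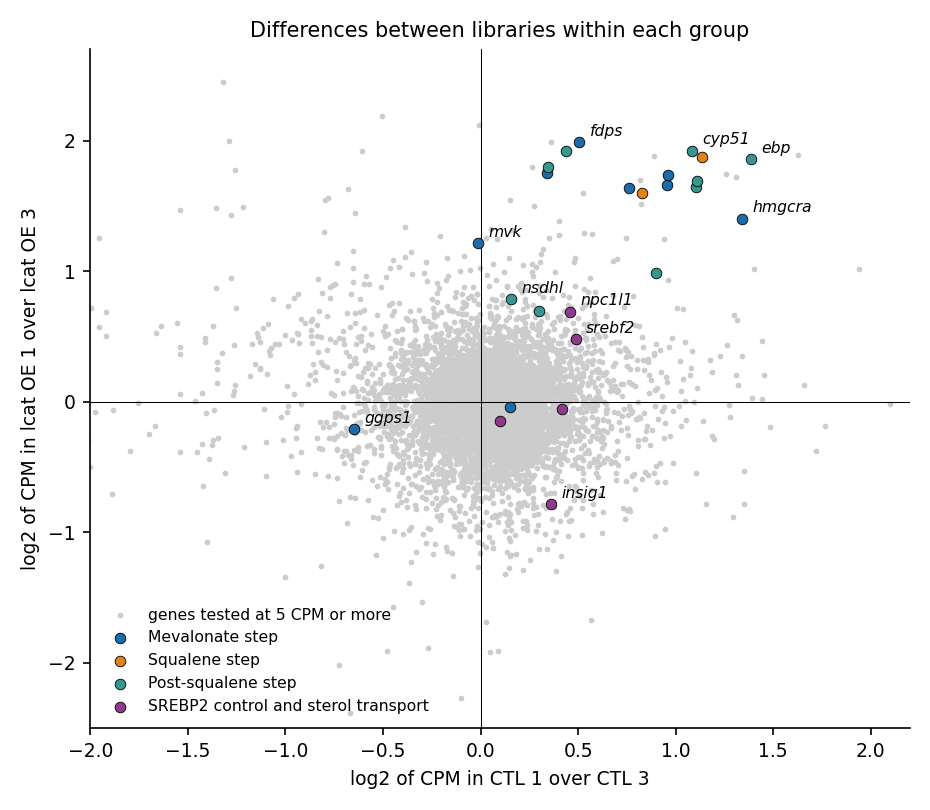
For each of the 6410 genes tested at a mean of 5 CPM or more (grey; 43 lie outside the axes or have a 0), the log2 ratio of CTL 1 to CTL 3 is plotted against that of lcat OE 1 to lcat OE 3, with members coloured by step (lbr and pmvk are below 5 CPM). Most enzymes lie at the upper right, away from the bulk of genes, while insig1, srebf2 and npc1l1 lie nearer to it.

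Genes around the pathway were taken from 5 lists, whose counts stand against 16.3% of all genes tested called higher and 16.3% lower, and a median of -0.02. Of 12 tested genes of SREBP processing and sterol sensing, 1 was higher and 5 were lower, with a median log2 fold change of -0.21. The site-1 protease gene mbtps1, whose product makes the first cut in SREBP, had 28.9, 28.0 and 27.5 CPM in CTL and 14.7, 15.5 and 17.9 CPM in lcat OE. These libraries were tight within each group, and mbtps1 fell by 0.81 on the log2 scale (SE 0.12, adjusted p = 0.000531). The gene srebf1, for the SREBP that mainly serves fatty acid synthesis, had 5.58, 4.88 and 5.42 CPM in CTL and 3.08, 2.24 and 2.01 CPM in lcat OE (-1.11, SE 0.21, adjusted p = 0.00236). By limma on TPM and FPKM, each with pseudocount 1, it was -0.65 and -0.66. The COPII coat gene sec24d fell (-0.56, SE 0.12, adjusted p = 0.00607), as did amfr, for a ubiquitin ligase that acts on reductase and INSIG1 in mammalian cells (-0.43, SE 0.11, adjusted p = 0.0151), and insig2 (-0.48, SE 0.14, adjusted p = 0.0249). The amfr call was lost without CTL 3 (0.0727), and that of insig2 without CTL 1 (0.105), lcat OE 1 (0.0772) or lcat OE 2 (0.0587). The member that rose was the COPII gene sec23a (0.48, SE 0.14, adjusted p = 0.0208), a call lost with library totals (0.0961) or totals without the 20 most abundant genes (0.0581), on TPM or FPKM (0.168 to 0.289), and without CTL 2 (0.0909), lcat OE 1 (0.0562) or lcat OE 2 (0.0824). The genes insig2 and sec23a were named after their values were seen.

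Of 13 tested genes of esterification and efflux 9 had values below 0, as had 7197 of all 14096 genes tested. By the test 1 was higher (lcat) and 3 were lower, beside the same 16.3% each way over all genes, with a median of -0.19. The gene soat1, for an enzyme that esterifies cholesterol inside the cell, had 15.9, 20.4 and 18.3 CPM in CTL and 7.80, 4.60 and 10.8 CPM in lcat OE. All lcat OE libraries were below CTL, and soat1 fell (-1.24, SE 0.28, adjusted p = 0.0109). Its more abundant paralog soat2, named after its values were seen, had 158, 131 and 152 CPM in CTL and 69.5, 64.9 and 128 CPM in lcat OE (-0.75, SE 0.26, adjusted p = 0.0621), with lcat OE 3 again nearest to CTL; it passed in 11 of 19 alternatives, among them library totals (0.00715), DESeq2 (0.00783), log2(TPM + 1) (0.00473) and without lcat OE 3 (-1.11, adjusted p = 0.000168), with adjusted p up to 0.17. The sterol exporter gene abcg8 fell from 5.73 ± 0.039 to 2.74 ± 0.407 CPM (SD, n = 3 each; -1.06, SE 0.18, adjusted p = 0.00141), and osbpl2a, for a lipid-binding protein of the oxysterol-binding family, fell too (-0.92, SE 0.18, adjusted p = 0.00359). The calls of soat1, abcg8, osbpl2a, mbtps1, srebf1 and sec24d were kept in 19 of 19 alternatives.

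Of 11 tested genes of uptake and lysosomal export, 1 was higher and 2 were lower, close to the 16.3% each way over all genes, with a median of -0.29. The LDL receptor gene ldlra, a SREBP2 target in mammals, had 399, 294 and 338 CPM in CTL and 237, 261 and 346 CPM in lcat OE. The groups overlapped through lcat OE 3, and its value of -0.29 (SE 0.16) missed the threshold (adjusted p = 0.202); it was -0.45 (adjusted p = 0.0243) without lcat OE 3, -0.39 (0.021) with library totals and -0.55 on log2(TPM + 1) (0.0108). The lysosomal cholesterol carrier gene npc2 rose from 142 ± 11.2 to 208 ± 10.4 CPM (SD, n = 3 each), a log2 change of 0.55 (SE 0.11, adjusted p = 0.00354). Lower were scarb1, for a receptor of HDL (-0.52, SE 0.15, adjusted p = 0.0215), and mylipa, whose mammalian counterpart marks LDL receptors for breakdown (-0.74, SE 0.24, adjusted p = 0.0405). The scarb1 call was lost without CTL 2 (0.0976) or lcat OE 2 (0.0766), and that of mylipa without CTL 2 (0.109), CTL 3 (0.123), lcat OE 1 (0.0524), lcat OE 2 (0.0768) or lcat OE 3 (0.0613).

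Other synthesis genes and the users of isoprenoids completed the lists. Of 8 tested genes of other synthesis reactions and electron supply, 2 were higher and 0 lower, and 1 lower gene had an unadjusted p below 0.05 by edgeR. The first was gb:ev754742, which RefSeq names erg28, a scaffold of the C4 demethylation enzymes in yeast. It had 1.52, 1.29 and 0.863 CPM in CTL and 6.98, 2.88 and 1.68 CPM in lcat OE (1.65, SE 0.53, adjusted p = 0.0463). The second was cyb5r2, of the cytochrome b5 reductases that pass electrons to sterol oxidases, with 18.7, 15.4 and 12.9 CPM in CTL and 49.5, 30.9 and 20.3 CPM in lcat OE (1.103, SE 0.33, adjusted p = 0.0472). Both had their lcat OE values highest in lcat OE 1 and lowest in lcat OE 3. The erg28 call was lost in 12 of 18 alternatives and that of cyb5r2 in 11 of 19, among them all 3 that leave out a CTL library (0.0883 to 0.139 and 0.0691 to 0.121), and without lcat OE 2 (0.0717 and 0.119); erg28 was also lost without lcat OE 1, where its value was 0.90 (0.0906). Of 15 genes that use isoprenoids for dolichol, ubiquinone and protein prenylation, 1 was higher (pdss1, for a subunit of the enzyme that builds the ubiquinone tail; 0.48, SE 0.14, adjusted p = 0.0215) and 0 were lower, with 0 lower at an unadjusted p below 0.05 by edgeR. The pdss1 call was lost with library totals (0.0924) or totals without the 20 most abundant genes (0.0562), on TPM or FPKM (0.0995 to 0.19), and without CTL 1 (0.0527), CTL 2 (0.092), lcat OE 1 (0.0512) or lcat OE 2 (0.0786).

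**Figure D5:**
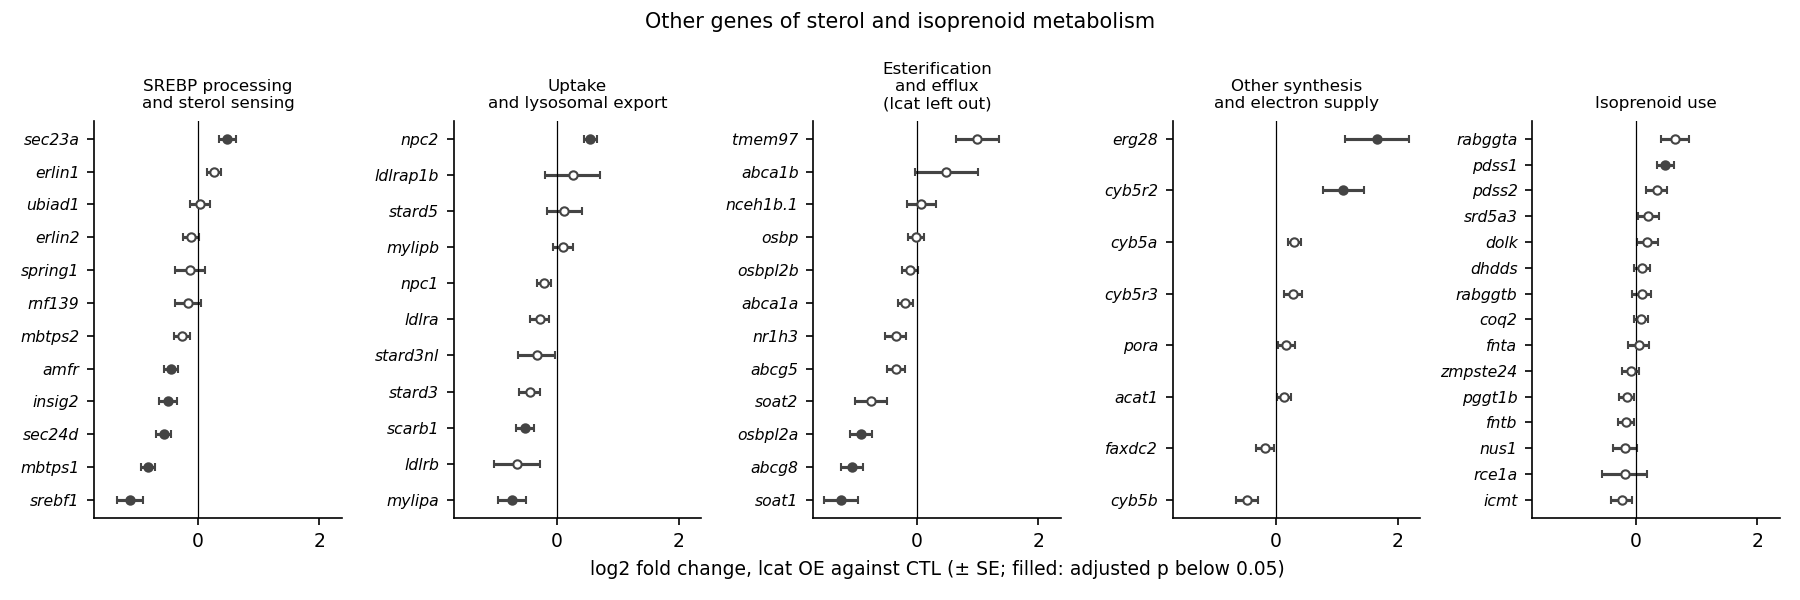
Log2 fold change of lcat OE against CTL, with the standard error, for the tested genes of the 5 surrounding lists without lcat; filled points passed the threshold. The filled points are mostly left of 0 in the SREBP processing and the esterification and efflux panels (mbtps1, srebf1, sec24d, amfr and insig2; soat1, abcg8 and osbpl2a) and right of 0 for erg28 and cyb5r2.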

How the data were processed

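The authors deposited 1 table of 23745 genes. Expected counts stand in its read count columns, where 10.8% to 11.8% of a library's genes are not whole (tolerance 0), beside deposited TPM and FPKM values, a signal made of counts scaled by 1 factor per library, and group averages; the last 2 kinds were not used. The build GRCz11 and the tools RSEM 1.3.1, Bowtie2 2.3.4.3, DESeq2 1.4.5 and HISAT appear, without roles, in the submitters' processing notes. No strand-specific step is stated per the labels, so antisense reads cannot be told apart, and the annotation is not given in the sources used here.

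Rounded counts went into the robust quasi-likelihood test of edgeR 4.0.16 (R 4.3.3) with TMM scaling after filterByExpr, with group as its single term, 2-sided, with Benjamini-Hochberg adjustment over 14096 genes and a threshold of 0.05. CPM values use TMM-scaled totals. The standard error is |log2 fold change| over the root of F. Levels of different genes were compared on TPM. Replicates of every pair differed by more than sampling noise (chi-square over its degrees of freedom 11.7 to 37.7).

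The members and lists were chosen with earlier results of these data known. All members were named. Of each of the 5 other lists, the genes past the threshold were named, up to the 4 of smallest p, and ldlra was named whatever its result. Any further gene is marked as picked with its values in view. Of 68 names on those lists, 59 were found as symbols and 5 through RefSeq (assembly GRCz12tu), 1 was a repeat and 3 had no match; 1 further gene is not reported here. A planned search of promoters for motifs was not run. Alternatives were other scaling, filters, DESeq2 1.42.0, a fit that is not robust, limma 3.58.1 on the log2 scale (TPM with pseudocount 1 or 0.1, FPKM with 1), offsets for transcript length, a replicate block, leaving out each library, and 2 against 2 libraries.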

Additional observations from a re-analysis of the deposited data

How the results depend on the processing

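Of 511 recomputed values of the 27 tested members, 450 kept direction and side of the threshold, 38 passed it only in the alternative, 11 lost it and 12 changed sign; nsdhl, npc1l1, scap and hsd17b7 kept theirs in all. Members called higher, 1 as reported, numbered 2 with RLE factors, 2 with no filter on low counts, 3 with at least 5 CPM in 3 libraries, 3 by DESeq2, 4 with a fit that is not robust and 5 with 2 against 2 libraries (median log2 fold change 1.302). In that order, all genes called higher numbered 2350, 2487 (of 23712 tested), 1335 (of 6580), 2194, 2294 and 2090, against 2293 as reported. Leaving out 1 library gave 1 to 6 members called higher and 1 to 3 called lower (1736 to 2344 and 1709 to 2241 of all genes tested). The labels do not say whether same-numbered libraries belong together. Over all genes tested, deviations of same-numbered libraries had correlations of -0.047, -0.029 and 0.016, which do not show what a smaller set of genes shares. In both groups CPM fell from library 1 to 2 to 3 in 16 of the 27 tested members (59.3%) and in 3.57% of all genes tested. With the number as a replicate block 12 of the 27 members were called higher and 4 lower, against 2039 and 2150 of all 14096 genes tested. All genes called higher numbered 1335, and lower 1369, with at least 5 CPM in 3 libraries, where fewer genes were tested. Called higher were 1344 on log2(TPM + 1) and 1367 on log2(TPM + 0.1), or 30.8% of the called genes, 40.1% on log2(FPKM + 1) and 38.8% with library totals, against 49.9% as reported; the median of all genes moved to -0.09, -0.18, -0.05 and -0.11, and the enzyme median was 0.60, 0.72, 0.66 and 0.93 above it. Leaving out 1 library moved mvk over -0.13 to 0.54, sqlea over -0.18 to 0.78, dhcr7 over -0.019 to 0.36 and lbr over -0.14 to 0.25, with the sign changed without lcat OE 1 for mvk, sqlea and dhcr7, and without CTL 2 (-0.11), lcat OE 2 (-0.05) or lcat OE 3 for lbr. The lbr value was also -0.079 with library totals, -0.032 with totals that leave out the 20 most abundant genes, -0.11 on log2(TPM + 1), -0.25 on log2(TPM + 0.1), -0.083 on log2(FPKM + 1) and -0.17 with 2 against 2 libraries. The value of fabp10a was -0.025 on TPM with either pseudocount. Other causes of these changes were not tested. Depth limits lbr, pmvk, erg28, srebf1 and abcg8, which have under 5 CPM on average.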

Other observations

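The library order of the enzymes also occurred outside the pathway. In both groups CPM fell from library 1 to 2 to 3 in 503 of 14096 genes tested and in 15 of the 22 enzymes. Limits on the size of the ratios were chosen after the data were seen, so the count they gave does not measure how rare the pattern is. The ratio of lcat OE 1 to lcat OE 3 had to be at least 2.5, and that of CTL 1 to CTL 3 at least 1.5. With a mean of at least 5 CPM, 16 of 14096 genes tested passed. Of these, 10 were members (hmgcra, hmgcs1, acat2, idi1, fdft1, sqlea, cyp51, msmo1, ebp and sc5d) and 6 were not. Among the latter were elovl2, an elongase of polyunsaturated fatty acids, and nr1d4b, of the nuclear receptor family of the circadian clock. The elovl2 values were 133.5, 90.9 and 53.9 CPM in CTL 1 to 3 and 299, 106 and 90.8 CPM in lcat OE 1 to 3. Those of nr1d4b were 7.06, 6.89 and 3.82 CPM in CTL and 10.4, 3.28 and 2.80 CPM in lcat OE. Others have only locus names, among them si:dkey-286h2.3 and LOC100329520. A member of the efflux list near these limits, tmem97, was named after its values were seen. It had 27.4, 22.3 and 16.4 CPM in CTL and 63.7, 41.2 and 26.7 CPM in lcat OE. By edgeR its log2 fold change of 0.996 (SE 0.35) did not pass the threshold (adjusted p = 0.0777).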
